A study of Rattus norvegicus with 167 samples.

Results

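Pdgfra, Olig1, Olig2 and Gpr17, 4 genes used to recognise oligodendrocyte precursor cells, were followed through a spinal cord injury series. They were looked up by name among 14218 genes with a named probe set on Affymetrix rat arrays. For each gene the probe set with the highest mean over all arrays was used, and probe sets assigned to several genes were left out. Of the 4 genes, 3 were found (Pdgfra and Olig1 with 1 probe set each, Olig2 with 2), and Gpr17 is not analysed here because no probe set carried its name alone. Pdgfra and Olig1 passed the filter on low values and were tested among 12041 genes. Olig2 did not pass and its values are given as a description.

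The 167 arrays measured total RNA of 5 mm pieces of rat spinal cord. All injured groups shared a complete transection of the thoracic cord with removal of 5 mm of tissue. The gap then held a chitosan tube loaded with the growth factor neurotrophin-3 (NT3), an empty chitosan tube (ET), or nothing (lesion control, LC). Uninjured cord gave 3 arrays. Tissue came from the lesion site and from the segments next to it on the rostral (towards the head) and caudal (towards the tail) sides, on days 1, 3, 10, 20, 30, 60 and 90. There were 21 NT3, 20 ET and 21 LC arrays from the rostral segment and 21 of each from the caudal segment. The lesion site gave 18 NT3 and 18 LC arrays from day 3 on, and 3 ET arrays of day 3 alone. Each of 55 groups held 3 arrays and the rostral ET group of day 10 held 2. The labels give no strain, sex or age and do not state whether the replicates of a group were different animals. The p-values therefore reflect the spread of these samples, part of which may be technical. Their number limits the precision. Earlier work on these files had found 3 arrays to stand apart (uninjured replicate 2, lesion LC day 20 replicate 5 and lesion NT3 day 3 replicate 1). Without them every call of the members given here stood, and 1 was added (Olig1 in rostral NT3 against LC by day, adjusted p = 0.0394 in place of 0.0506). The same 3 uninjured arrays serve every comparison with uninjured cord, and the LC arrays serve both the NT3 and the ET comparisons.

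Oligodendrocyte precursors are dividing glial cells spread through the grey and white matter of the adult cord, and they give rise to the cells that make myelin. Pdgfra is the receptor through which platelet-derived growth factor A drives their division, and it is lost as they mature. Outside this lineage it is also a standard marker of fibroblasts. Olig1 and Olig2 are basic helix-loop-helix transcription factors of the whole lineage, present in mature oligodendrocytes as well. They are neighbours in the rat genome, with 0 protein-coding genes between them in the RefSeq annotation of GRCr8. Gpr17 is a receptor of precursors that have begun to differentiate. After injury, precursors near the lesion divide and can form new myelin, while fibroblasts enter the lesion and build a scar. In whole tissue, fewer cells of a type and less RNA per cell cannot be told apart.

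The measured genes did not form a common pattern. Values are log2 signals, so that a difference of 1 is a doubling, and "rose", "fell", "higher" and "lower" are used as calls when the adjusted p of limma's moderated test was under 0.05. Pdgfra was highest at the lesion site and Olig1 lowest there. The group means of Pdgfra ran from 10.86 in the caudal NT3 group of day 90 to 12.83 in the lesion LC group of day 90, a span of 1.97. Those of Olig1 ran from 7.45 in that same lesion group to 12.33 in uninjured cord, a span of 4.88. Olig2 spanned 1.16, from 5.00 (lesion LC day 90) to 6.15 (rostral ET day 1). The median SD within a group was 0.15, 0.17 and 0.14 for the 3 genes.

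**Figure D1:**
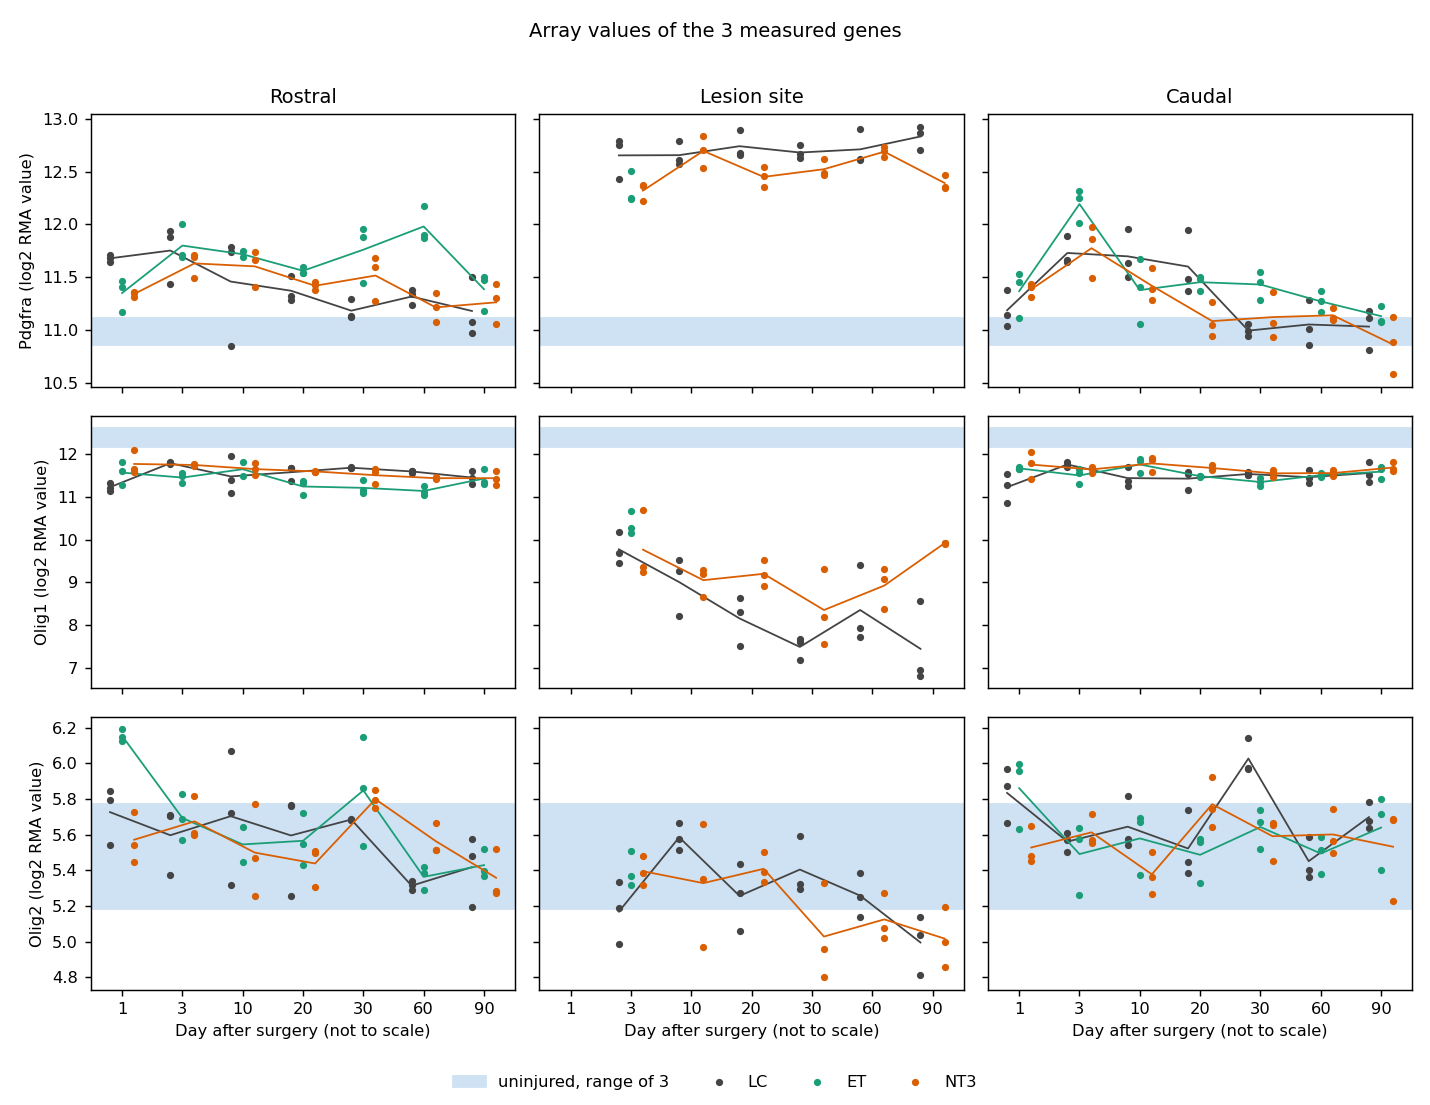
Log2 array values of Pdgfra, Olig1 and Olig2 (rows, each with its own axis) against day after surgery, by segment (columns). Points are single arrays, lines join group means, and the blue band spans the 3 uninjured arrays: all 39 lesion-site arrays lie above the band for Pdgfra and below it for Olig1.

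All 13 lesion-site groups were the 13 highest of 56 for Pdgfra and the 13 lowest for Olig1. Ordered by mean, neighbouring groups were close: of 55 neighbouring pairs, the ranges of arrays did not overlap in 3 for Olig1 and in 0 for Pdgfra and Olig2. Among the 39 lesion-site arrays Pdgfra had a lowest value of 12.23, a median of 12.62 and a highest value of 12.93. Among the 3 uninjured arrays it was 10.92, 11.11 and 10.86. Every lesion-site array was therefore above every uninjured array. For Olig1 the lesion-site arrays ran from 6.82 through a median of 9.20 to 10.68, and the uninjured arrays stood at 12.21, 12.60 and 12.17. Again the groups did not overlap, in the opposite direction. These orders describe the levels, and the share of all genes separated in this way was not counted. Against uninjured cord, 74.3 to 79% of all tested genes were called in lesion LC tissue. The comparisons that follow give the tests.

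Pdgfra, the receptor, was higher after injury at the lesion site on all days measured. In the adjacent segments of LC tissue its excess over uninjured cord was not called late. Rostrally that excess was largest early, and caudally it was similar in the early and intermediate periods. In lesion LC tissue Pdgfra was 12.75, 12.79 and 12.43 on day 3, which was 1.69 above uninjured cord (SE 0.10, 3.23-fold, adjusted p = 7.52e-16). On days 10, 20 and 30, called intermediate here, it ran from 12.57 through a median of 12.67 to 12.89, a difference of 1.73 (SE 0.08, adjusted p = 1.22e-18). On days 60 and 90, the late period, it ran from 12.61 through 12.79 to 12.93, a difference of 1.81 (SE 0.09, 3.51-fold, adjusted p = 2.35e-18). The level at the lesion site thus hardly moved: the step from day 3 to the intermediate period was 0.04 (95% interval -0.13 to 0.21) and the next 0.08 (-0.06 to 0.21), neither called. The NT3 tissue was 1.58 above uninjured cord in the late period (SE 0.09, adjusted p = 1.27e-16).

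In the rostral segment the early LC arrays (days 1 and 3) had Pdgfra at 11.43, 11.69 and 11.94 (lowest, median, highest of 6 arrays), which was 0.75 above uninjured cord (SE 0.13, adjusted p = 3.20e-06). The intermediate arrays ran from 10.85 through 11.29 to 11.79 (difference 0.38, SE 0.13, adjusted p = 0.00960), and without uninjured replicate 3 this call was lost (0.33, adjusted p = 0.0620). The late difference of 0.29 (95% interval 0.01 to 0.56) was not called (adjusted p = 0.0697). The fall from the early to the intermediate period was itself called (-0.38, SE 0.10, adjusted p = 0.00149), and the next step of -0.09 was not. Cell cycle genes were also highest early, with 9 of 9 higher than in uninjured cord (median 2.64) and 7 of 9 late (median 0.64). On 5 of 7 days all LC arrays lay above the uninjured ones. The exceptions were day 10, where the first replicate was 10.85 beside 11.79 and 11.74, and day 90.

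In the caudal segment Pdgfra in LC tissue was highest on day 3, as it was rostrally, and stayed near that level to day 20. The group means were 11.18 on day 1, 11.73 on day 3, 11.70 on day 10 and 11.60 on day 20, and then 10.99, 11.05 and 11.03 on days 30, 60 and 90. On days 3, 10 and 20 all LC arrays lay above the uninjured ones, and on the other 4 days the groups overlapped. The differences from uninjured cord were 0.50 early (SE 0.13, adjusted p = 7.42e-04), 0.47 intermediate (SE 0.12, adjusted p = 7.68e-04) and 0.08 late (95% interval -0.18 to 0.34, adjusted p = 0.617). The drop from the intermediate to the late period was called (-0.39, SE 0.10, adjusted p = 0.00320).

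Olig1, the transcription factor, was lower than in uninjured cord in each of these comparisons. In the rostral segment LC arrays it lay at 11.14, 11.54 and 11.80 (lowest, median, highest of 6) early, 11.09, 11.66 and 11.94 (of 9) in the intermediate period and 11.31, 11.58 and 11.61 (of 6) late. All were below the lowest uninjured value of 12.17. The differences were -0.82 (SE 0.12, adjusted p = 8.40e-08), -0.75 (SE 0.12, adjusted p = 2.38e-07) and -0.81 (SE 0.12, adjusted p = 2.60e-07), so the level was 1.77-fold, 1.69-fold and 1.75-fold lower. The caudal segment gave nearly the same values: -0.84, -0.86 and -0.82, each with SE 0.11 or 0.12 and adjusted p of 3.27e-08, 4.39e-09 and 8.27e-08. Neither segment moved between periods beyond its error, with steps from -0.06 to 0.07 and none called. The early period averages 2 unlike days. On day 1 the LC means differed from uninjured cord by -1.10 in both segments. On day 3 the differences were -0.54 rostrally and -0.57 caudally. In each segment all day 1 arrays lay below all day 3 arrays, and this step was not tested.

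At the lesion site Olig1 continued to fall after day 3. The LC arrays read 10.16, 9.69 and 9.46 on day 3 and 9.53, 8.22 and 9.27 on day 10. They read 8.64, 7.52 and 8.31 on day 20 and 7.19, 7.69 and 7.60 on day 30. On days 60 and 90 the spread widened, to 7.93, 9.41 and 7.73 and to 6.82, 6.96 and 8.57. Against uninjured cord the difference was -2.55 on day 3 (SE 0.45, 5.88-fold lower, adjusted p = 6.96e-06), -4.11 in the intermediate period (SE 0.37, 17.2-fold lower, adjusted p = 7.74e-12) and -4.42 late (SE 0.39, 21.5-fold lower, adjusted p = 6.81e-12). The step after day 3 was called (-1.55, SE 0.37, adjusted p = 0.00109) and the later step of -0.32 (95% interval -0.91 to 0.28) was not.

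**Figure D2:**
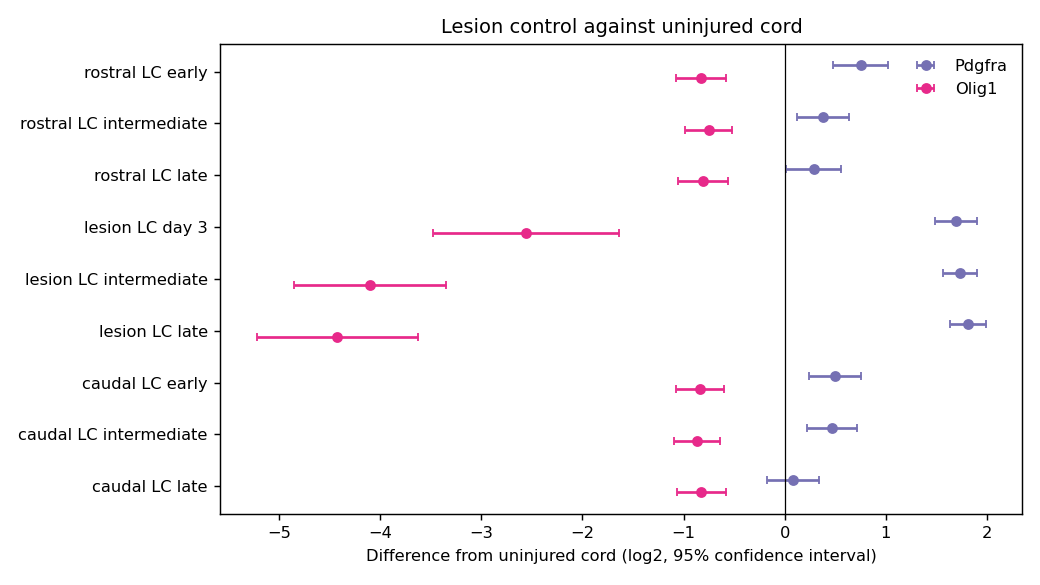
Difference between lesion control tissue and uninjured cord (log2, points) with 95% confidence intervals from the fit, for Pdgfra and Olig1 by segment and period. Olig1 lies left of 0 in all 9 comparisons, from -0.75 to -4.42, and Pdgfra right of 0, with intervals that exclude 0 in all but the late caudal comparison.

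Large parts of the array changed with injury, and the members have to be read against that. The share of all tested genes called against uninjured cord was 67.7, 60.5 and 53.6% in the early, intermediate and late rostral LC comparisons and 65, 61.7 and 56.6% in the caudal ones. At the lesion site it was 74.3% on day 3, 79% in the intermediate and 75.4% in the late period, and 71.9% for late NT3 tissue. Both members were called in all of these except the late rostral and caudal ones, where Olig1 alone was. For the steps between periods in LC tissue the shares were 51% (rostral, early to intermediate) and 14.9% (rostral, intermediate to late), 51.5% and 20.1% (caudal), and 41.9% and 45% (lesion site). In each of these 6 steps at most 1 member was called. The difference between the 3' and 5' probe sets of beta-actin, a measure of RNA integrity, had a higher mean in uninjured cord (1.72, SD 0.505) than in the injured arms (means from 0.93 to 1.35). Uninjured replicate 2, at 2.29, lay above all injured arrays, and the other two (1.355 and 1.501) lay within their range. Its part in the differences from uninjured cord was not tested beyond a fit with it as a covariate, in which every call of the members against uninjured cord stood and late rostral Pdgfra became called too.

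Set against the adjacent segments of the same arm and days, the lesion site was lower in Olig1 and higher in Pdgfra. Olig1 in lesion LC tissue was 2.00 below the mean of the rostral and caudal LC groups on day 3 (9.77 against 11.77, SE 0.23, adjusted p = 3.03e-13), where 62.2% of genes were called. In the intermediate period the difference was -3.30 (SE 0.13, adjusted p = 1.10e-46) and late -3.61 (SE 0.16, adjusted p = 9.22e-42), with 81.6% and 77% of genes called. This fit shares 1 estimate of the spread over all arrays. The median SD of Olig1 within a group was 0.63 in lesion LC, 0.09 in rostral LC and 0.23 in caudal LC tissue. These SEs and p-values for Olig1 therefore understate the spread at the lesion site. Pdgfra stood 0.91 (SE 0.12), 1.31 (SE 0.07) and 1.63 (SE 0.09) above the adjacent segments, with adjusted p of 2.66e-10, 1.28e-34 and 6.33e-35. Averaged over the 7 days, rostral and caudal LC tissue did not differ detectably. The rostral minus caudal difference was 0.06 for Olig1 (95% interval -0.05 to 0.16) and 0.09 for Pdgfra (-0.02 to 0.21), in a comparison with 0.507% of genes called. Single days were not tested. On day 1 Pdgfra read 11.64, 11.71 and 11.68 in rostral LC and 11.14, 11.04 and 11.38 in caudal LC tissue, without overlap.

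Olig2, the partner of Olig1, gave a signal near the bottom of the arrays. Its stronger probe set was above the filter, the 40th percentile of all probe sets of an array, in 0 of 167 arrays and lay between the 7.72nd and the 20.4th percentile of named genes. In uninjured cord it read 5.49, 5.18 and 5.77, and in the lesion LC group of day 90 it read 4.81, 5.14 and 5.04. Both of its probe sets moved alike in part, with a correlation of 0.667 over the 56 group means and 0.499 over the arrays. Its arrays overlapped the uninjured ones in all groups but 3: rostral ET day 1 (6.15, 6.19 and 6.13) and caudal LC day 30 (5.97, 6.14 and 5.97) lay above them, and lesion LC day 90 below. Without the filter, Olig2 at the lesion site was 0.41, 0.28 and 0.34 lower than in the adjacent segments (adjusted p = 0.00202, 1.35e-04 and 1.57e-04 for day 3, intermediate and late). Against uninjured cord it was 0.36 lower in late lesion LC tissue (-0.36, adjusted p = 0.0158), 0.41 lower in late lesion NT3 tissue (-0.41, adjusted p = 0.00615) and 0.25 higher in intermediate caudal LC tissue (adjusted p = 0.0404). With uninjured values this close to the floor of the arrays, a loss as large as that of Olig1 could not be measured.

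The other genes of the lineage, taken from written lists, moved with Olig1 at the lesion site and not with Pdgfra. In late lesion LC tissue 1 of 11 tested precursor markers was higher and 9 were lower than in uninjured cord (median -1.45, against 0.06 over all tested genes). Bcan, a proteoglycan of precursors and astrocytes, fell by 2.00 (SE 0.29), Ptprz1, a receptor phosphatase, by 1.90 (SE 0.23), and Sox10, the transcription factor of the lineage and of Schwann cells, by 1.45 (SE 0.22). Vcan, the proteoglycan versican, which fibroblasts make too, had been 1.79 higher on day 3 (SE 0.15) and was 0.28 lower late (SE 0.13, adjusted p = 0.0459). On day 3, 2 of 11 markers were higher and 8 lower, with a median of -1.52.

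Genes of differentiating precursors and of myelin fell there as well. Of 10 tested genes of commitment and differentiation, 2 were higher and 8 lower in late lesion LC tissue (median -2.65), among them Bcas1, a marker of newly forming oligodendrocytes (-3.21, SE 0.28), the kinase gene Fyn (-1.39, SE 0.13) and Sirt2 (-1.66, SE 0.12). Tcf7l2, a transcription factor of differentiating oligodendrocytes that other cells also express, was 0.92 higher (SE 0.08). Of 10 myelin genes, 0 were higher and 8 lower (median -2.84). Mobp fell by 4.36 (SE 0.42), Cnp by 2.19 (SE 0.20) and Mbp, myelin basic protein, by 1.40 (SE 0.17). Cldn11, the tight junction protein of myelin, fell on day 3 (-1.12, SE 0.19) and stood at 0.10 (SE 0.17, adjusted p = 0.601) late.

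In the adjacent segments the precursor markers went both ways. In early rostral LC tissue 1 was higher and 8 were lower of 11 (median -0.36), with Bcan at -1.26 (SE 0.14) and Vcan at 0.99 (SE 0.13). Late, 3 were higher and 3 lower in each segment, with medians of -0.08 rostrally and -0.16 caudally. This was near the share of all tested genes called late, 53.6% rostrally (2999 higher and 3454 lower) and 56.6% caudally (3031 and 3789). Sox10 was among the lower ones on both sides (-0.58, SE 0.15, and -0.70, SE 0.15). Myelin genes remained mostly low, with 8 of 10 lower in late rostral and 7 of 10 in late caudal LC tissue.

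Around the receptor, the PDGF genes differed from each other. Pdgfrb, the beta receptor of pericytes and fibroblasts, rose by 1.60 on day 3 (SE 0.17) and by 3.02 late (SE 0.14) in lesion LC tissue. Pdgfc, a ligand of Pdgfra, rose by 0.96 (SE 0.31) and 2.27 (SE 0.27). Pdgfa, the ligand best known for driving precursors, rose by 0.39 on day 3 (SE 0.13, adjusted p = 0.00938), stood 0.23 above uninjured cord late (SE 0.11, adjusted p = 0.0676), and was lower in the late adjacent segments (-0.48 rostrally, SE 0.13, and -0.58 caudally, SE 0.11). Pdgfb had no named probe set and Pdgfd did not pass the filter.

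Genes that hold back differentiation were split at the lesion site, as were all tested genes. Of 8 tested, 4 were higher and 2 lower in late lesion LC tissue (median 0.33). Among all tested genes 75.4% were called there, 4870 higher and 4214 lower. Jag1, a Notch ligand, rose by 2.22 (SE 0.18) and Bmp4, a growth factor that turns precursors towards astrocytes in culture, by 2.57 (SE 0.19). Id4, an inhibitor of basic helix-loop-helix factors, fell by 1.46 (SE 0.27), and its relative Id2 stood at 0.34 (SE 0.21, adjusted p = 0.147). Of the P2Y and cysteinyl leukotriene receptors, to which Gpr17 is related, 5 of 9 were tested, and 4 were higher and 1 lower in that tissue (median 1.15). The lower gene was P2ry12, a receptor of resting microglia (-1.08, SE 0.20).

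Markers of other cell types moved with both members. All 9 tested fibroblast genes were higher in late lesion LC tissue (median 4.24), with the collagen genes Col1a2 at 4.28 (SE 0.08) and Col3a1 at 4.24 (SE 0.09), Lum at 3.54 (SE 0.10) and Dcn at 2.94 (SE 0.09). They were higher in all 9 in late rostral LC tissue (median 1.58) and in 8 of 9 in late caudal LC tissue (median 1.27). All 9 neuronal genes were lower at the lesion site (median -4.00) and 7 of 9 astrocyte genes were lower (median -1.36). The medians of the other lists in late lesion LC tissue were 1.03 for pericytes and smooth muscle (7 of 8 higher), 1.16 for Schwann cells (4 higher and 1 lower of 5), 2.09 for microglia and macrophages (7 of 8 higher), 1.49 for cell cycle genes (7 of 9 higher) and 0.52 for skeletal muscle (1 higher and 1 lower of 6). The part of fibroblasts, or of any other cell type, in the Pdgfra signal was not tested.

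**Figure D3:**
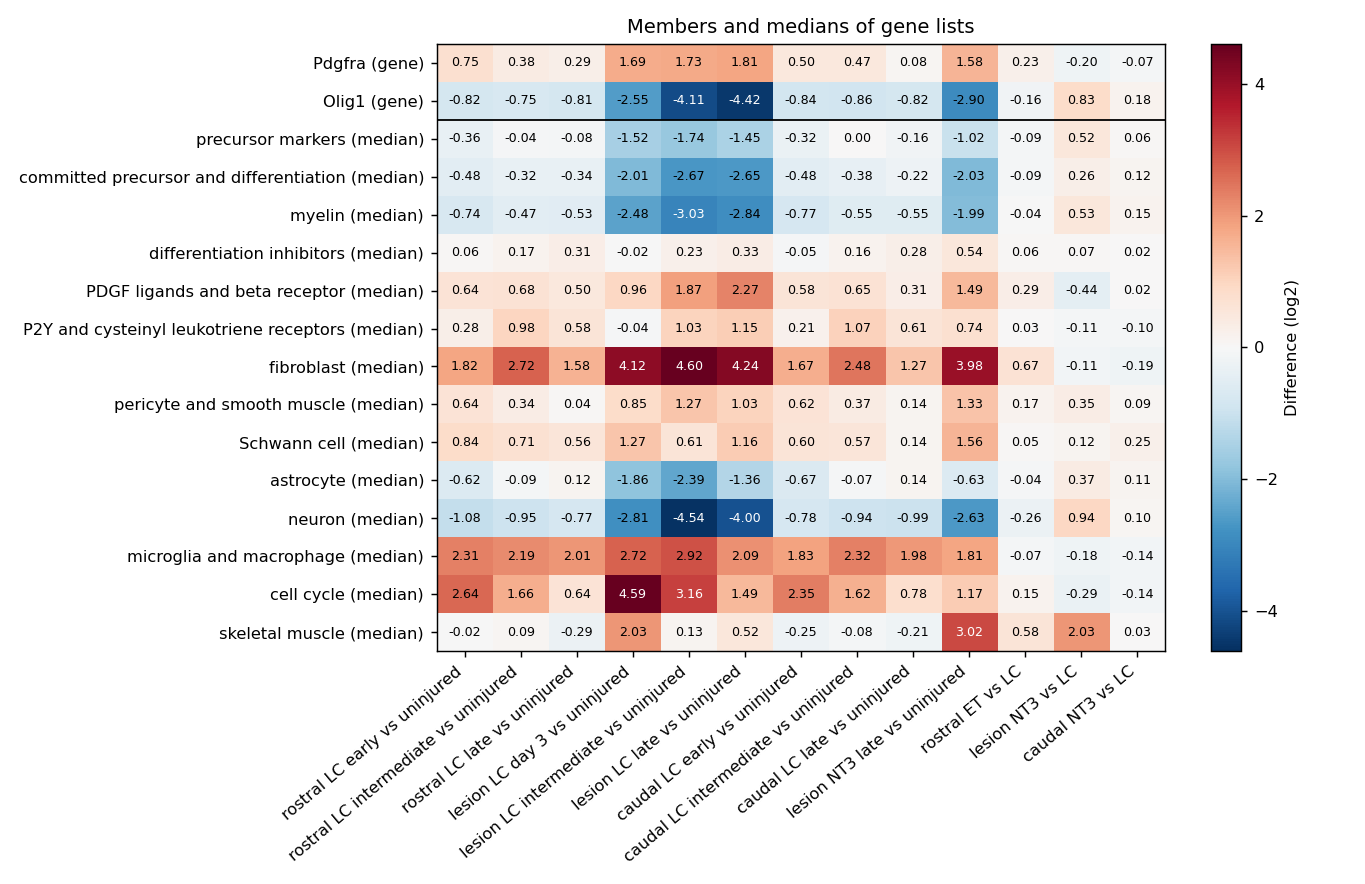
Log2 differences of Pdgfra and Olig1 (top, single genes) and medians of 14 gene lists (below the line) in 13 comparisons, with red for higher and blue for lower in the group named first. At the lesion site in late LC tissue Pdgfra (1.81) has the sign of the fibroblast median (4.24), and Olig1 (-4.42) that of the myelin (-2.84) and neuronal (-4.00) medians.

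Over the 56 group means the likeness of pattern followed the same division, given here as a description of groups that share tissue and injury. Pdgfra and Olig1 had a correlation of -0.874 with each other. Within the 13 lesion-site groups it was -0.758, within the 21 rostral groups -0.314 and within the 21 caudal groups -0.00935, so most of the overall value lay between segments. The 5 genes most like Pdgfra were Antxr2 (0.976), Flrt2 (0.970), Uggt2 (0.964), Cyp1b1 (0.962) and Lamc1, a laminin chain (0.962). The 5 most like Olig1 were Kndc1 (0.991), Mobp (0.986), Gad1, the enzyme that makes the transmitter GABA (0.984), Vxn (0.982) and Bcas1 (0.981).

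**Figure D4:**
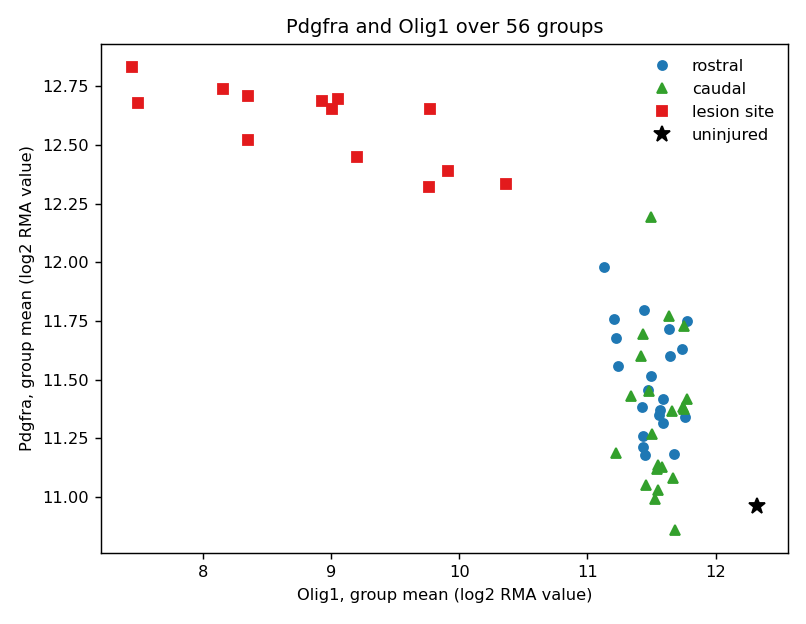
Group means of Pdgfra against Olig1 (log2 array values), 1 point for each of 56 groups, marked by segment. The 13 lesion-site groups lie at the upper left, uninjured cord at the lower right, and the correlation is -0.874 over all groups but -0.00935 over the 21 caudal ones.

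The median correlation of the fibroblast genes was 0.851 with Pdgfra and -0.746 with Olig1 (9 genes). That of the myelin genes was -0.867 with Pdgfra and 0.929 with Olig1 (10 genes), and that of the precursor markers -0.822 and 0.839 (11 genes). Within the 21 caudal groups the means of Olig1 ran from 11.22 to 11.78. There Pdgfra still had a median correlation of 0.790 with the fibroblast genes and -0.211 with the precursor markers. Within the 21 rostral groups these were 0.579 and -0.182. The cell cycle genes were as close to Pdgfra in the adjacent segments, with medians of 0.840 over the caudal and 0.506 over the rostral groups (9 genes). Over the 13 lesion-site groups the median was 0.489 for the fibroblast genes and -0.394 for the cell cycle genes. Against the label of precursor genes, the pattern of Olig1 ran with the other precursor markers over all groups and that of Pdgfra ran against them. This was not particular to precursor markers. Neuronal and astrocyte genes had medians of 0.931 and 0.830 with Olig1 and -0.875 and -0.810 with Pdgfra. Within segments the median of the precursor markers with Olig1 was lower, at 0.178 rostrally, 0.224 caudally and 0.508 at the lesion site.

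The NT3 tube was compared with LC over the days that both had. At the lesion site Olig1 was higher with NT3 and Pdgfra lower. Olig1 in NT3 tissue read 10.68, 9.24 and 9.37 on day 3, 9.28, 8.67 and 9.20 on day 10, and 9.51, 8.92 and 9.16 on day 20. It read 9.31, 7.56 and 8.19 on day 30, 9.09, 8.37 and 9.32 on day 60, and 9.92, 9.90 and 9.92 on day 90. All NT3 arrays lay above all LC arrays on days 20 and 90, and the groups overlapped on the other 4 days. Over the 6 days the mean was 9.20 against 8.37, a difference of 0.83 (SE 0.18, adjusted p = 4.96e-04), in a comparison with 41.9% of genes called. NT3 tissue still stood 2.90 below uninjured cord in the late period (SE 0.39, adjusted p = 7.66e-08).

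For Pdgfra the same arrays gave means of 12.51 with NT3 and 12.71 in LC, a difference of -0.20 (SE 0.04, adjusted p = 2.27e-04). All NT3 arrays lay below all LC arrays on days 3, 20, 30 and 90. On day 90 they read 12.35, 12.47 and 12.36 against 12.93, 12.86 and 12.71.

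The lesion-site difference changed with the day. For Olig1, NT3 minus LC was -0.01 on day 3, 0.04 on day 10, 1.04 on day 20, 0.86 on day 30, 0.57 on day 60 and 2.47 on day 90. The range over days of 2.47 was called by the moderated F-test (F = 4.02, adjusted p = 0.0173), as was that of 0.48 for Pdgfra (adjusted p = 0.0342), where 50.6% of genes were called. The call for Olig1 was lost without lesion LC day 90 replicate 1 (range 2.16, adjusted p = 0.0669) or replicate 2 (2.23, adjusted p = 0.0604). That for Pdgfra was lost without either of these (adjusted p = 0.0677 and 0.0581) and without any of 9 other lesion-site arrays of days 10, 60 and 90 (adjusted p from 0.0517 to 0.0653).

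**Figure D5:**
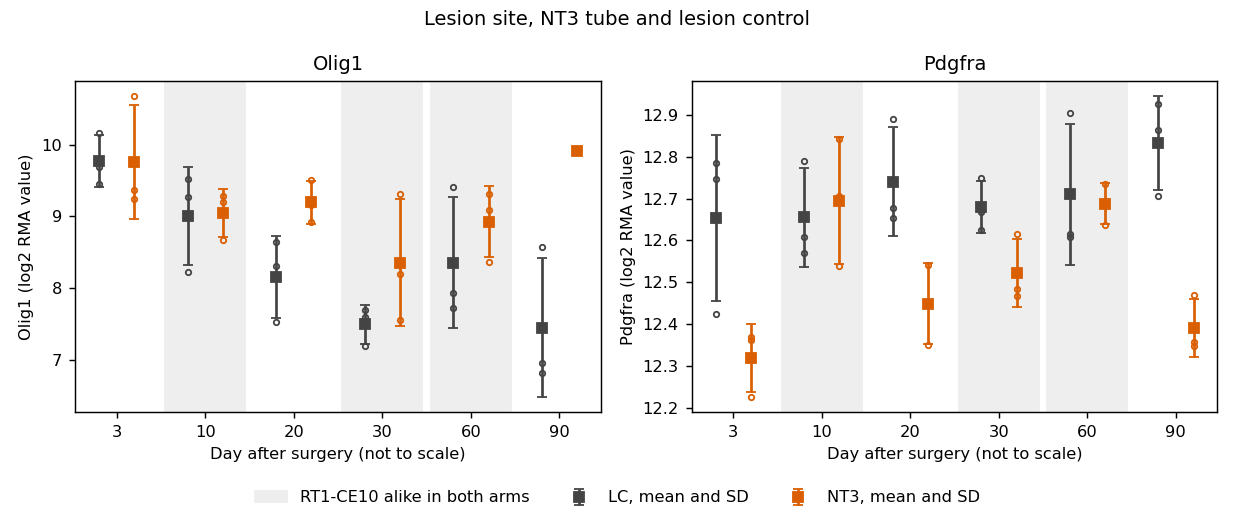
Olig1 and Pdgfra (log2 array values) at the lesion site with the NT3 tube and in lesion control, by day, with single arrays as open circles and squares with bars for the mean and SD of 3. Grey marks days 10, 30 and 60, when both arms had a similar level of RT1-CE10; the largest differences, on day 90 (2.47 for Olig1 and -0.44 for Pdgfra), lie outside it.

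Another difference between the arms ran alongside. RT1-CE10, a class I histocompatibility gene that varies between rat strains, was high in all arrays of some groups and low in all arrays of others, with LC groups of day 3 (all segments) and of day 20 (lesion site) mixed. The NT3 and LC means of the lesion site fell on the same side of a level of 9 on days 10, 30 and 60 alone. Over these 3 days Olig1 was 0.49 higher with NT3 (adjusted p = 0.157) and Pdgfra stood at -0.05 (adjusted p = 0.582), so neither was called, while 30.4% of genes still were. Neither range over days was called on these days (0.82 and 0.20). On day 90 treatment and the state of this gene cannot be told apart. On days 3 and 20, 2 of 3 LC arrays and 0 of 3 NT3 arrays were above 9. Against uninjured cord, where RT1-CE10 was low (mean 6.58), LC tissue on the low side on days 10 and 60 had the same directions at the lesion site: means of 9.01 and 8.36 for Olig1 and 12.65 and 12.71 for Pdgfra. In the adjacent segments the LC groups of days 1, 30 and 90 were high in RT1-CE10 (means from 10.59 to 11.46). Each LC period there thus mixes days on both sides of 9. The part of this in the steps between periods and in the differences from uninjured cord was not tested.

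Over the 6 days gene lists moved with Olig1 at the lesion site under NT3. Of 11 precursor markers 8 were higher and 2 lower than in LC (median 0.52, against -0.01 over all tested genes), with Ptprz1 at 0.71 (SE 0.11), Sox10 at 0.57 (SE 0.10), Bcan at 0.48 (SE 0.13) and Vcan at -0.30 (SE 0.06). Of 10 myelin genes 8 were higher (median 0.53), of 10 differentiation genes 5 were higher and 1 lower, and of 9 neuronal genes 7 were higher (median 0.94). Id4 was 0.73 higher (SE 0.13), while Bmp4 fell by 0.52 (SE 0.09), Pdgfa by 0.46 (SE 0.05) and Pdgfc by 0.44 (SE 0.13). On the 3 days with RT1-CE10 alike, when Olig1 was not called, 30.4% of all tested genes were. Of the 11 precursor markers 2 were then higher and 2 lower (median 0.20), which was near that share. On these days 5 of 10 myelin genes, 2 of 9 neuronal genes and 1 of 10 differentiation genes were higher.

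Skeletal muscle genes also separated these arms. All 6 tested were higher at the lesion site with NT3 than in LC (median 2.03), and all 6 were on the days with RT1-CE10 alike (median 2.22). Relative to uninjured cord, the mean of the muscle list in NT3 groups lay between 2.12 and 3.27 and in LC groups between -0.33 and 1.90. Of 9 fibroblast genes 0 were higher and 5 lower with NT3 (median -0.11), and the pericyte and smooth muscle list had 6 of 8 higher (median 0.35). Of 9 cell cycle genes 6 were lower (median -0.29), and 6 were on the days with RT1-CE10 alike. The part of the tissue make-up of the pieces in the difference of the members was not tested.

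In the adjacent segments NT3 and LC differed little in the members. Rostrally the difference was 0.05 for Olig1 (95% interval -0.06 to 0.16) and 0.01 for Pdgfra (-0.11 to 0.12), neither called, with 2.77% of genes called. By day, Olig1 ranged over 0.72 (adjusted p = 0.0506) and Pdgfra over 0.67 (adjusted p = 0.175), with 28.2% of genes called. All NT3 arrays were above LC for Olig1 on day 1 and below it on days 30 and 60. The Olig1 range passed the threshold when any 1 of 9 rostral arrays was left out (adjusted p = 0.00652 without LC day 10 replicate 1, and from 0.0333 to 0.0495 for the others).

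Caudally Olig1 was 0.18 higher with NT3 (11.66 against 11.48, SE 0.05, adjusted p = 0.0229) where 9.76% of genes were called, with the arms apart on day 20 alone among 7 days (11.65, 11.75 and 11.61 against 11.58, 11.15 and 11.53). The call was lost without NT3 day 1 replicate 2 (0.16, adjusted p = 0.0512), without LC day 20 replicate 2 (0.16, adjusted p = 0.0548) and on the 5 days with the RT1-CE10 means on the same side (0.12, adjusted p = 0.335), which include day 3, when 2 of 3 caudal LC arrays and 0 of 3 NT3 arrays were above 9. Pdgfra stood at -0.07 (95% interval -0.19 to 0.04). By day neither was called (adjusted p = 0.157 for Olig1 and 0.0926 for Pdgfra, 7.18% of genes called). The NT3 minus LC difference did not differ detectably between the rostral and caudal segments (-0.13 for Olig1, 95% interval -0.28 to 0.02, and 0.08 for Pdgfra, -0.09 to 0.24, with 0.108% of genes called).

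The empty tube gave the highest rostral Pdgfra. On day 60 the rostral ET arrays read 12.17, 11.90 and 11.87 against 11.23, 11.38 and 11.34 in LC, and on day 30 they read 11.45, 11.88 and 11.95 against 11.12, 11.29 and 11.13. All ET arrays were above all LC arrays on days 20, 30 and 60 and below them on day 1. Over the 7 days Pdgfra was 0.23 higher with ET (SE 0.06, adjusted p = 0.00389) and Olig1 was 0.16 lower (-0.16, SE 0.05, adjusted p = 0.0301), with 22.8% of genes called. NT3 minus ET in that segment was -0.22 for Pdgfra (SE 0.06, adjusted p = 0.00349) and 0.21 for Olig1 (SE 0.05, adjusted p = 0.00315), with 30.2% of genes called. These contrasts share the ET arrays and are not independent.

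Fibroblast genes moved with the rostral ET difference: 8 of 9 were higher with ET than in LC (median 0.67), while 0 of 11 precursor markers were higher and 1 was lower (median -0.09). Dcn was 0.62 higher (SE 0.07), Lum 0.80 (SE 0.11) and Pdgfc 0.43 (SE 0.09). Of 9 neuronal genes 8 were lower (median -0.26), and of 6 skeletal muscle genes 3 were higher (median 0.58). On the 5 days with the RT1-CE10 means of ET and LC on the same side (1, 3, 10, 20 and 30, with 1 of 3 LC arrays above 9 on day 3), Pdgfra was 0.15 higher (adjusted p = 0.215) and Olig1 stood at -0.13 (adjusted p = 0.253), 7 of 9 fibroblast genes were higher, and 4.12% of all genes were called. In NT3 against ET on such days Olig1 stayed called and Pdgfra did not (-0.16, adjusted p = 0.121). The Olig1 call in ET against LC was also lost without ET day 1 replicate 3, day 10 replicate 1, day 20 replicate 1 or day 90 replicate 1, or LC day 10 replicate 1 (adjusted p from 0.0510 to 0.0921).

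Caudally Pdgfra was 0.21 lower with NT3 than with ET (-0.21, SE 0.06, adjusted p = 0.0194) and Olig1 stood at 0.11 (adjusted p = 0.151), with 8.38% of genes called. ET and LC did not differ detectably there (0.13 for Pdgfra, 95% interval 0.02 to 0.25, adjusted p = 0.143, and 0.06 for Olig1, -0.04 to 0.17, adjusted p = 0.456), with 3.5% of genes called. The highest caudal Pdgfra values were those of ET on day 3, at 12.02, 12.32 and 12.25, above the LC values of 11.64, 11.66 and 11.89. At the lesion site ET was measured on day 3 alone, where Pdgfra was 12.24, 12.25 and 12.51 against 12.75, 12.79 and 12.43 in LC (-0.32, SE 0.10, adjusted p = 0.0223, 23.2% of genes called). These arrays overlapped, the arms differed in their RT1-CE10 means, and the call was lost without ET replicate 1 or 2 or LC replicate 1 or 2 (adjusted p from 0.0896 to 0.122). Olig1 stood 0.59 above LC (95% interval -0.33 to 1.51, adjusted p = 0.364).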

How the data were processed

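RNA of 167 spinal cord samples was measured on Affymetrix arrays. The submitters' processing notes name GCOS, RMA and Affymetrix Expression Console, without versions. The deposited values of 31099 probe sets are on a log2 scale, as the authors' RMA gives them, and were used without change; which arrays were normalised together is not given in the sources used here. GEO's platform annotation named 20832 probe sets with 1 gene, 436 with several and 9831 with none (57 of all probe sets were controls), and RefSeq of GRCr8 matched 20764 and changed 0 symbols. Genes were tested where they lay above the 40th percentile of the array in at least 3 arrays.

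A model of group means was fitted in limma 3.58.1 (R 4.3.3), 1 for each segment plus uninjured cord, with both adjacent segments together for comparisons between them, and all arrays for the lesion site against them. Contrasts average group means over days, and a moderated F-test asked whether a difference changed with the day. Two-sided p-values were adjusted by Benjamini-Hochberg over 12041 genes in each of 32 comparisons, with a threshold of 0.05. Medians and correlations of lists are descriptions. The text names the 4 genes, up to 4 genes of a list by highest mean level, and the 5 genes most like each member. Days were called alike in RT1-CE10 where the means of both groups lay on the same side of 9.

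The scripts were tested on simulated data first. Alternatives covered the filter, scaling, prior, probe set, replicate block, beta-actin and each array left out. The members and lists were chosen with earlier results of these data known.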

Additional observations from a re-analysis of the deposited data

Results flagged for a closer look

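The lesion-site difference between NT3 and LC changed with the day by the moderated F-test, with a range over days of 2.47 for Olig1 (adjusted p = 0.0173) and 0.480 for Pdgfra (adjusted p = 0.0342). Both calls were lost without LC day 90 replicate 1 or 2 and on the days with RT1-CE10 alike.

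The difference between LC tissue and uninjured cord was not the same in the segments, by the test of the lesion site against the mean of the adjacent segments. For Olig1 it was -1.995 on day 3, -3.30 in the intermediate and -3.61 in the late period. For Pdgfra it was 0.913, 1.31 and 1.63.

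ET minus LC went opposite ways on different days with no overlap of arrays, and these differences between days were not tested. In the caudal segment Olig1 was above LC in all ET arrays on day 1 and below it in all on days 3 and 30, a range over days of 0.695. In the rostral segment Pdgfra was below LC in all ET arrays on day 1 and above it in all on days 20, 30 and 60, a range of 0.994.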

How the results depend on the processing

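Under the other settings 2279 values of the members kept their side of the threshold, 44 lost a call and 17 gained one. Those kept include 64 values with the next-highest probe set and 64 with the mean of probe sets. Pdgfra and Olig1 have 1 probe set each, so these differences could not change and are no check. Of the values called in either setting, 0 changed direction. Differences that were not called could change sign: Pdgfra in rostral NT3 against LC ran from -0.04 to 0.03 with each array left out. Where the number of called members changed, it is given here. Without the filter Olig2 joined and 1 of 3 genes was called in rostral and in lesion LC late against intermediate and in caudal NT3 against LC by day, and 3 of 3 in caudal LC intermediate, in late lesion LC and late lesion NT3 against uninjured cord and in the lesion site against the adjacent segments in each period. Rostral NT3 against LC by day had 1 called member with a 60th percentile filter, a trended and robust prior, a replicate block or without 3 arrays that stood apart. Rostral ET against LC had 1 with quantile normalization, 75th percentile scaling or the beta-actin covariate. The lesion ET against LC call of day 3 fell to 0 with 75th percentile scaling, in 1 fit of all arrays and in a fit of the compared groups alone. The scaling moved the median of all genes there from -0.07 to 0.07, and in no other comparison by over 0.1.

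In 1 fit of all arrays rostral LC late had 2, caudal NT3 against LC 0, and lesion NT3 against LC by day, rostral NT3 against ET and rostral ET against LC 1 each. In the fit of the compared groups alone rostral LC intermediate had 1 and rostral LC late 2, which the beta-actin covariate also gave. On days with RT1-CE10 alike caudal and lesion NT3 against LC, lesion NT3 against LC by day and rostral ET against LC had 0, and rostral NT3 against ET 1. Lesion ET against LC had no such day and was not run.

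With each array left out in turn the number ran from 1 to 2 in rostral LC intermediate and late and in rostral ET against LC, from 0 to 1 in rostral NT3 against LC by day, in caudal NT3 against LC and in lesion ET against LC on day 3, and from 0 to 2 in lesion NT3 against LC by day. The late rostral call of Pdgfra appeared without LC day 90 replicate 3 (adjusted p = 0.0373).

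Replicate numbers are shared between groups and were not taken as pairs. For rostral NT3 and LC 8 of 21 same-numbered pairs were over 0.1 (median correlation 0.00844). For rostral and caudal LC 13 of 21 were (median 0.246, against -0.0734 for other pairs). Lesion LC pairs had medians of 0.138 with rostral (others -0.00145) and 0.0577 with caudal LC (others -0.0661). Between segments of NT3 or ET the medians ran from -0.0337 to 0.0737. A pairing of LC segments is thus not excluded, and the comparisons between segments treated their arrays as independent. With the replicate block the range over days of Olig1 in rostral NT3 against LC was 0.717 (adjusted p = 0.0493). Signal limits Olig2, which lay below the filter in all arrays.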
